A study of Mus musculus with 8 samples.

Results

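Complement is a cascade of plasma proteins that marks injured cells and microbes and calls in inflammatory cells. C3 is cleaved at its centre, by convertases that the classical and lectin routes start through proteases such as MASP-1 and that the alternative route builds from factor B, factor D and properdin. The fragments C3a and C5a act on the receptors C3aR and C5aR1, and inhibitors such as the C1 inhibitor hold the early proteases in check. The liver makes most of the circulating proteins, and many other tissues make some locally. In mouse bone, C3a and C5a receptors have been studied on osteoblasts and osteoclasts and in fracture healing.

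The genes described here are Cfb, Cfp, Masp1, Serping1, C3ar1 and C5ar1, chosen by name. Of 8 genes listed, these 6 had probe sets annotated to that symbol alone, 14 probe sets of the 45037 on the array that are not controls. C3 and Cfd, which encode complement C3 and factor D, had none under this rule and were not analysed here.

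The cells came from femoral fracture calluses of male C57/Bl6 mice aged 10 to 12 weeks, after a bicortical fracture held by an intramedullary pin, and were sorted without culture, 10000 of each kind per experiment. SSCs (skeletal stem cells, 4 arrays) were gated as negative for CD45, Ter119, Tie2, Thy1, 6C3 and CD105 and positive for CD51 and CD200. BCSPs (bone, cartilage and stroma progenitors, 4 arrays) shared these gates except that they were positive for CD105, with no CD200 gate. The labels place the harvest at day 7 after fracture, while the study's methods name a later day. All animals were injured and no unfractured bone was included, so levels cannot be set against intact tissue. Each of 4 experiments gave 1 array of either population, and the study's legend names 4 mice for the 8 arrays. The p-values measure the spread between these arrays.

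Each probe set carries a score between about -100, inactive, and 100, active, that places it within its own range over a large collection of public mouse arrays. A score of 0 is the threshold of that probe set. Differences are given in points of this score, never as folds, and a score does not rank the mRNA amount of a gene against that of another. The background was set by 35 genes of retina, brain, germ cells and other unrelated tissues, called the silent genes below. Their background level, the 95th percentile of 50 probe sets, ran from -20.7 to -8.47 over the 8 arrays, and 3 of the genes were above 0 on 2 arrays each. Chondrocyte genes (9 of 9) and osteoblast genes (6 of 6 measured) were above 0 on all 8 arrays, while Ptprc (CD45) and Tek (Tie2) were below 0 on each. Eng, which encodes the CD105 that separates the gates, scored -64.4 to -29.4 in SSCs and 50.1, -0.370, 2.67 and -1.02 in BCSPs, so that it was above 0 on only 2 of the 4 CD105-positive arrays. Cd200 and Itgav (CD51) were above 0 on all 8 arrays. In such bulk samples fewer cells of a type and less RNA per cell cannot be told apart.

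The promoters of the receptor genes are shown because C5ar1 had the largest mean difference between the populations of the 6 genes and C3ar1 among the smallest. They are the 250 bases before the start of each gene in RefSeq (build GRCm38.p6, minus strand), where 5 of the 8 listed genes have an entry. Capitals mark GGAA or its reverse TTCC, the core recognised by ETS factors, a family that includes PU.1 of myeloid cells.
C3ar1, chr6:122856158-122856407: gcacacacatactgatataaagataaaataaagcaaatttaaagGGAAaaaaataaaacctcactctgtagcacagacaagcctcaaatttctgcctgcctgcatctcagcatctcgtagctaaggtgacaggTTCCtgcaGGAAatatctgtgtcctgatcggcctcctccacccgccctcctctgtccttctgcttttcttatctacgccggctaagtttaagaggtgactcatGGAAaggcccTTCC
C5ar1, chr7:16259339-16259588: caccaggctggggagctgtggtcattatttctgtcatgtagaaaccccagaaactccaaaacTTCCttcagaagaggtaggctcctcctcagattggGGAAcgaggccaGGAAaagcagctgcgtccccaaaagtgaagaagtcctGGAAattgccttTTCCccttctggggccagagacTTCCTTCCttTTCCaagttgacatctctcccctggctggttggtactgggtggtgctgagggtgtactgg
On both strands the core occurred 5 times before C3ar1 and 8 times before C5ar1. It occurred at least once in 93.4% of 32851 promoters of this length, with a median of 3 matches. A total of 18.0% of them held 5 matches or more and 1.45% held 8 or more. The longer form GAGGAA, or TTCCTC in reverse, occurred in neither and in 23.3% of all. These matches describe letters only, and the letters searched were chosen after the scores had been seen.

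Serping1 was the only gene of the 6 above its threshold on all 8 arrays. Cfb, C3ar1 and C5ar1 were below 0 on every array with every probe set, and Cfp and Masp1 were above 0 on 3 arrays and 1 array, each by 1 of its probe sets. Counted as probe sets, 1 of 14 was above 0 on all arrays and 11 of 14 on none. Over the whole array these shares were 16.1% and 49.5%. With the highest-mean probe set standing for each gene, 25.0% of 18193 genes were above 0 on all arrays and 43.5% on none, beside 1 and 3 of the 6. The count for the 6 genes was again 1 with the background level as the threshold.

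Between the populations, limma called 0 of the 14 probe sets at an adjusted p under 0.05, and 0% of all probe sets were called. At an unadjusted p under 0.05 there was 1 of 14, a probe set of C5ar1, beside 2.40% of all probe sets. With the experiment as a block 1 of 14 passed at that level, beside 5.04% of all probe sets, and with the methods' t-test 2 of 14, beside 2.43%. For none of the 14 were the SSC and BCSP arrays fully apart, as they were for 1.43% of all probe sets. SSCs were higher in 4 of 4 experiments for 1 probe set (5.43% of all) and lower in 4 of 4 for 2 probe sets (7.24% of all). The median difference (SSC minus BCSP) over the 14 was -1.05 points, and over all probe sets it was -0.605 points. Equal levels are not shown by these tests, since the intervals given below are wide.

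**Figure D1:**
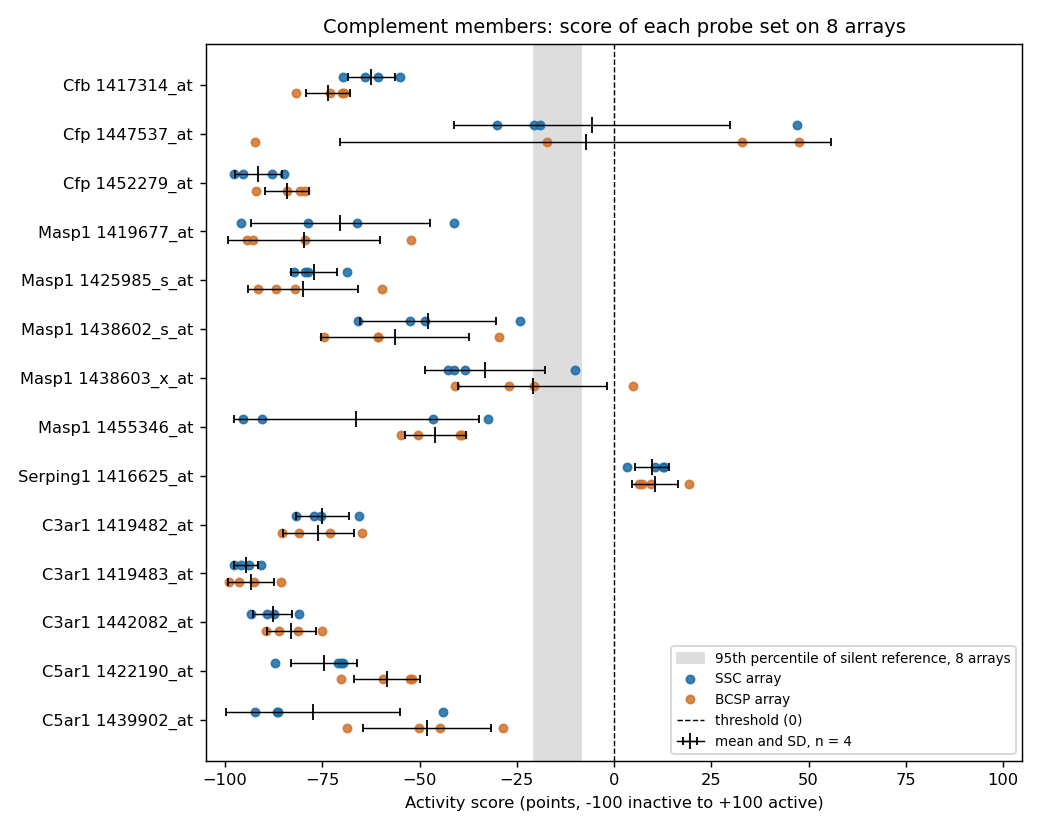
Activity score in points (x axis, -100 to 100) of each of the 14 probe sets of the 6 complement genes on 4 SSC arrays (blue) and 4 BCSP arrays (orange). Ticks and bars give the mean and SD of 4 arrays, the dashed line the threshold of 0 and the grey band the background level from the silent genes (-20.7 to -8.47); only Serping1 lies right of the line throughout, at 3.28 to 19.2.

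Of the alternative route, Cfb was scored low in both populations and higher in SSCs in each experiment. Cfb encodes factor B, the protease subunit of the alternative C3 convertase. Its single probe set scored -60.8, -64.2, -69.6 and -55.0 on the SSC arrays of experiments 1 to 4 and -69.9, -73.0, -81.7 and -69.5 on the BCSP arrays. The groups overlapped by a single array, since the SSC array of experiment 3 lay just below the BCSP array of experiment 4. All 8 values were under the background level. The means were -62.4 ± 6.13 in SSCs and -73.5 ± 5.66 in BCSPs (SD, n = 4 each). The difference was 11.1 points (standard error 6.90, 95% confidence interval -4.37 to 26.7), and it did not pass limma (adjusted p = 1). Within experiments the differences ran from 8.82 to 14.5 points. An exact two-sided permutation test gave p = 0.0571 over the 70 assignments of arrays. Exchanges within experiments cannot go below an exact p = 0.125 with 16 arrangements, and Cfb was at that value.

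Cfp encodes properdin, which stabilises that convertase and is made mainly by neutrophils and other myeloid cells. Its probe sets disagreed. Probe set 1447537_at scored -19.1, -20.7, 47.1 and -30.1 on the SSC arrays of experiments 1 to 4. On the BCSP arrays it scored -92.4, -17.2, 47.4 and 32.9. The high values were those of both arrays of experiment 3 and of the BCSP array of experiment 4, and the groups overlapped across nearly their whole range. Probe set 1452279_at was between -97.7 and -79.5 on all 8 arrays.

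The range of 1447537_at over the 8 arrays was 139.84 points, beside a median range of 58.1 points over all probe sets. Its means were -5.70 ± 35.5 in SSCs and -7.33 ± 63.1 in BCSPs (SD, n = 4 each). The difference of 1.63 points (95% confidence interval -68.5 to 71.8) did not pass limma (adjusted p = 1, exact two-sided permutation p = 0.971). Its direction turned without the SSC array of experiment 3 (-16.0 points), without the BCSP array of experiment 1 (-26.7 points) and without that of experiment 2 (-1.66 points). On the arrays of experiment 3 the 3' minus 5' score of the actin control was 59.6 and 64.9 points. It was 44.2 on the BCSP array of experiment 4 and 23.1 to 36.6 on the others. The 3 arrays where Cfp was above 0 were thus those with the highest values of this control. The 3' and 5' scores each lie within the range of their own probe set. The difference is therefore not a signal ratio, and only a loose sign of RNA length. The part of RNA length in the Cfp score was not tested. On the 3 arrays where Cfp was above 0, the highest silent gene scored -12.0 (SSC, experiment 3), 5.87 (BCSP, experiment 3) and -9.10 (BCSP, experiment 4), each by its highest-mean probe set. On the other arrays it scored 34.6, -3.25 and 11.9 (SSC, experiments 1, 2 and 4) and 63.4 and 46.2 (BCSP, experiments 1 and 2). Silent genes thus reached scores as high as those of Cfp above 0, though on other arrays.

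**Figure D2:**
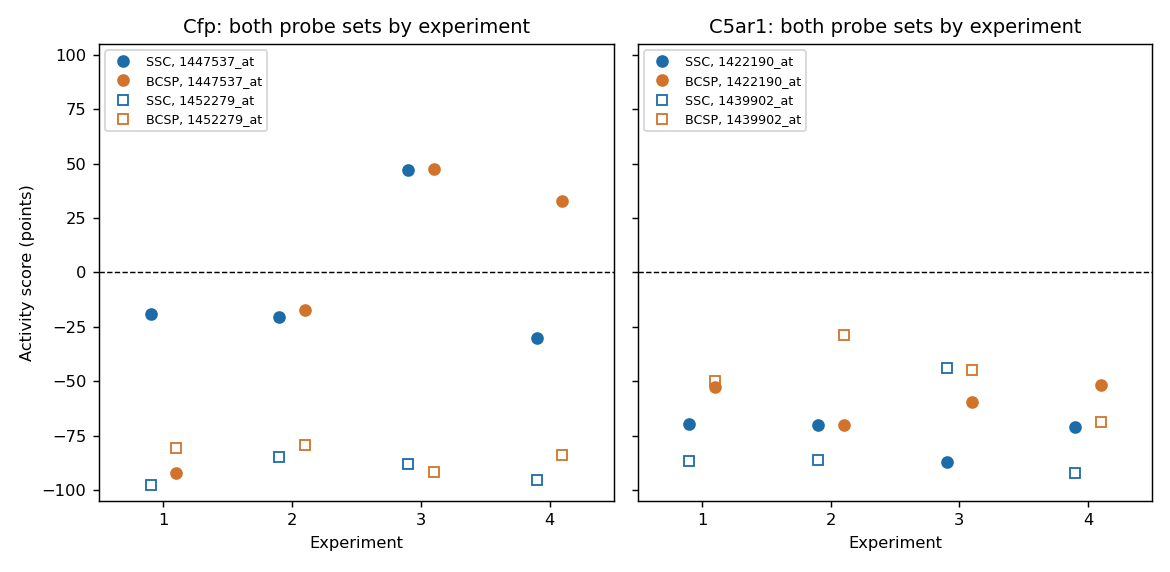
Activity score in points (y axis) of both probe sets of Cfp (left) and C5ar1 (right) in experiments 1 to 4 (x axis), with SSC arrays in blue and BCSP arrays in orange. Filled circles show the probe set listed first and open squares the other; for Cfp the first reached 47.1 and 47.4 in experiment 3 while the second stayed at -79.5 or below, and for C5ar1 the SSC array of experiment 3 is the lowest by the first probe set (-87.2) and the highest of the SSC arrays by the second (-44.0).

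Masp1, of the lectin route, encodes MASP-1 and, by alternative splicing, MASP-3, which activates factor D. It was mostly below background, with 5 probe sets that did not move together. The highest, 1438603_x_at, scored -10.1, -38.3, -41.2 and -42.8 on the SSC arrays of experiments 1 to 4 and 4.75, -20.5, -40.9 and -27.0 on the BCSP arrays. The arrays of experiment 1 were the highest of each population, the groups overlapped, and only the BCSP array of experiment 1 was above 0. SSCs were lower in 4 of 4 experiments, by differences from -17.8 to -0.290 points. The mean difference was -12.2 points (95% confidence interval -44.4 to 20.1; limma, adjusted p = 1), with an exact two-sided permutation p = 0.314. Leaving out the BCSP array of experiment 1 gave -3.62 points, and leaving out the SSC array of that experiment -19.8 points.

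The other Masp1 probe sets were below 0 on all arrays, between -95.9 and -24.1. Probe set 1455346_at was lower in SSCs by -20.3 points on average, while 1419677_at, 1438602_s_at and 1425985_s_at were higher, by 9.26, 8.64 and 2.83 points. None of these passed limma (adjusted p = 1 for each). By their names, those ending in _s_at or _x_at may also detect other transcripts. The files do not say which of the probe sets detects which splice form.

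Serping1 was scored just above its threshold in both populations, with little spread. It encodes the C1 inhibitor, a serpin that blocks C1r, C1s and MASP-1 as well as kallikrein and factor XII. Its single probe set scored 12.8, 10.5, 12.5 and 3.28 on the SSC arrays of experiments 1 to 4 and 9.53, 19.2, 6.32 and 7.29 on the BCSP arrays. The groups overlapped, and SSCs were higher in 2 experiments and lower in 2. The whole range was 15.9 points, beside the median of 58.1 points for all probe sets. Means were 9.76 ± 4.43 in SSCs and 10.6 ± 5.91 in BCSPs (SD, n = 4 each). The difference of -0.830 points did not pass limma (95% confidence interval -25.7 to 24.0, adjusted p = 1, exact two-sided permutation p = 0.83). The direction turned without the BCSP array of experiment 2 (2.05 points) and without the SSC array of experiment 4 (1.33 points). The interval is wide beside these SDs because limma shares the spread among probe sets of like mean score.

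The receptor genes were below background on every array, and neither passed the test between the populations. Both encode G protein-coupled receptors that are abundant on macrophages and neutrophils. The 3 probe sets of C3ar1 lay between -98.9 and -64.8. The highest, 1419482_at, scored -77.2, -81.8, -75.4 and -65.5 on the SSC arrays of experiments 1 to 4. On the BCSP arrays it scored -64.8, -73.0, -85.3 and -81.0, so that SSCs were lower in experiments 1 and 2 and higher in experiments 3 and 4. The groups overlapped, and the difference was 1.02 points (95% confidence interval -14.7 to 16.8; limma, adjusted p = 1; exact two-sided permutation p = 0.886). It turned without the SSC array of experiment 4 (-2.13 points), without the BCSP array of experiment 3 (-2.08 points) and without that of experiment 4 (-0.624 points). The differences of 1419483_at and 1442082_at were -1.27 and -4.76 points, and they did not pass limma either (adjusted p = 1 for each).

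C5ar1 had lower mean scores in SSCs by both probe sets. Probe set 1439902_at scored -86.8, -86.3, -44.0 and -92.4 on the SSC arrays of experiments 1 to 4 and -50.1, -28.7, -44.7 and -68.6 on the BCSP arrays. SSCs were lower in 3 of 4 experiments, and the SSC array of experiment 3 lay among the BCSP arrays. The means were -77.4 ± 22.4 in SSCs and -48.0 ± 16.5 in BCSPs (SD, n = 4 each). The difference was -29.4 points (standard error 12.9, 95% confidence interval -58.5 to -0.274), at an unadjusted p = 0.0483 and an adjusted p = 1 in limma (0.933 with the experiment as a block). An exact two-sided permutation test gave p = 0.114, and p = 0.250 within experiments. Without the SSC array of experiment 3 the difference was -40.5 points.

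The other C5ar1 probe set, 1422190_at, scored -69.6, -70.2, -87.2 and -70.9 on the SSC arrays and -52.5, -70.1, -59.4 and -51.8 on the BCSP arrays. SSCs were lower in 4 of 4 experiments, but in experiment 2 by only -0.100 points. The SSC and BCSP arrays overlapped, because the BCSP array of experiment 2 lay below the highest SSC array. The difference was -16.0 points (standard error 7.83, 95% confidence interval -33.7 to 1.58; limma, adjusted p = 1; exact two-sided permutation p = 0.0571). The SSC array of experiment 3 was the lowest of its group here and the highest by 1439902_at. Both probe sets stayed lower in SSCs under each of 18 alternatives, from -40.5 to -19.9 points for 1439902_at and from -21.3 to -11.8 points for 1422190_at, with adjusted p-values between 0.933 and 1. Some of these alternatives, such as the block and the methods' t-test, change only the p-value and cannot turn a difference. Nor could leaving out both arrays of an experiment turn 1422190_at, which was lower in 4 of 4.

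**Figure D3:**
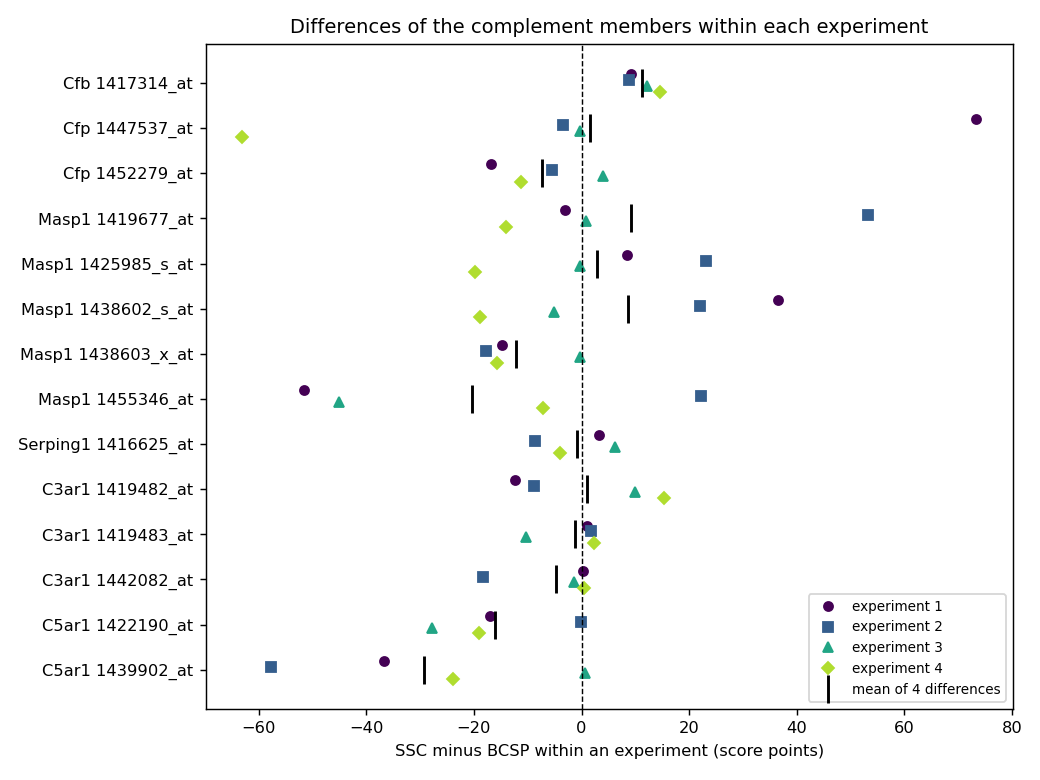
Difference between the SSC and the BCSP array of the same experiment in score points (x axis) for the 14 probe sets, with a symbol for each of experiments 1 to 4 and a black tick for their mean. Cfb lies right of 0 in all experiments (8.82 to 14.5), C5ar1 1422190_at and Masp1 1438603_x_at lie left of it, and Cfp 1447537_at runs from -63.0 to 73.3.

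Most genes of the cells that carry these receptors were low as well. The macrophage list had 12 of 12 genes below 0 on all arrays, with array medians from -77.3 to -69.5 in SSCs and from -78.9 to -62.9 in BCSPs, and summed scores from -837.8 to -757.7 and from -875.8 to -713.1. Of its defining genes, Csf1r was at most -37.8 and Cd68 at most -85.2 on any array. Cd14, which some other cells also express, was the highest of the list at -15.0 to -5.07 and exceeded the background level on 6 of 8 arrays, while the other genes of the list exceeded it on none. All 10 neutrophil genes measured stayed below 0 throughout, with array medians from -58.7 to -53.9 in SSCs and from -77.1 to -54.7 in BCSPs, and summed scores from -635.2 to -540.7 and from -709.7 to -543.8. Of 8 mast cell genes, 7 were below 0 on all arrays, and Tpsb2 was above 0 only on the SSC array of experiment 1 (39.0). Of 10 lymphocyte genes measured, 8 were below 0 on all arrays and Cd8a was above 0 on all 8 by 1 of its 5 probe sets, at 59.7 to 92.8. The remaining gene, Ighm, was above 0 only on the BCSP array of experiment 1 (59.6). The part of such cells in the receptor scores was not tested.

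Few genes of the wider cascade were above their thresholds. Of 56 complement genes listed by role, 45 had a probe set of their own, and by the highest-mean probe set 3 were above 0 on all 8 arrays and 39 on none. The shares over all genes were 25.0% and 43.5%, as given above. All 3 were inhibitors. They were 2 of 8 soluble regulators and 1 of 7 membrane regulators measured, beside the 25.0% of all genes. Beside Serping1 they were Cr1l, the mouse membrane protein Crry that blocks C3 convertases on the cell surface, and Clu, encoding clusterin, which binds terminal complexes. Cr1l scored 56.1, 59.9, 57.7 and 47.5 on the SSC arrays and 57.2, 57.9, 44.2 and 54.3 on the BCSP arrays. These values overlapped between populations, while the other 2 probe sets of Cr1l were above 0 on both arrays of experiment 3, or on 1 of them, and on no other. By the highest of 4 probe sets Clu scored 9.30, 4.20, 12.5 and 4.27 in SSCs, its BCSP scores ran from 4.30 to 12.3, and by the lowest probe set it was below 0 throughout. The probe sets of Clu between these were above 0 on 3 arrays each. The highest has a name ending in _x_at, so it may also detect other transcripts.

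The initiating genes were below 0 on all arrays for 12 of 14 genes measured. By mean score, those closest to the threshold were C1s1, C2 and C1ra, which encode the proteases of the C1 complex and a substrate of C1s. C1s1, the C1s protease, scored -6.65 ± 12.8 in SSCs and -8.11 ± 5.67 in BCSPs (SD, n = 4 each) and was above 0 on the SSC array of experiment 1 alone. It exceeded the background level on all 8 arrays, by a probe set whose name ends in _s_at and which may also detect other transcripts. C2 scored -19.9 ± 8.69 and -13.9 ± 7.89, and C1ra -19.8 ± 12.7 and -27.4 ± 16.5 in the same order (SD, n = 4 each). The recognition genes C1qa, C1qb and C1qc, made mainly by macrophages, had means between -68.7 and -52.2. All 6 terminal pathway genes measured and all 8 receptor genes were below 0 on every array, as were 6 of 8 soluble regulators and 6 of 7 membrane regulators.

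**Figure D4:**
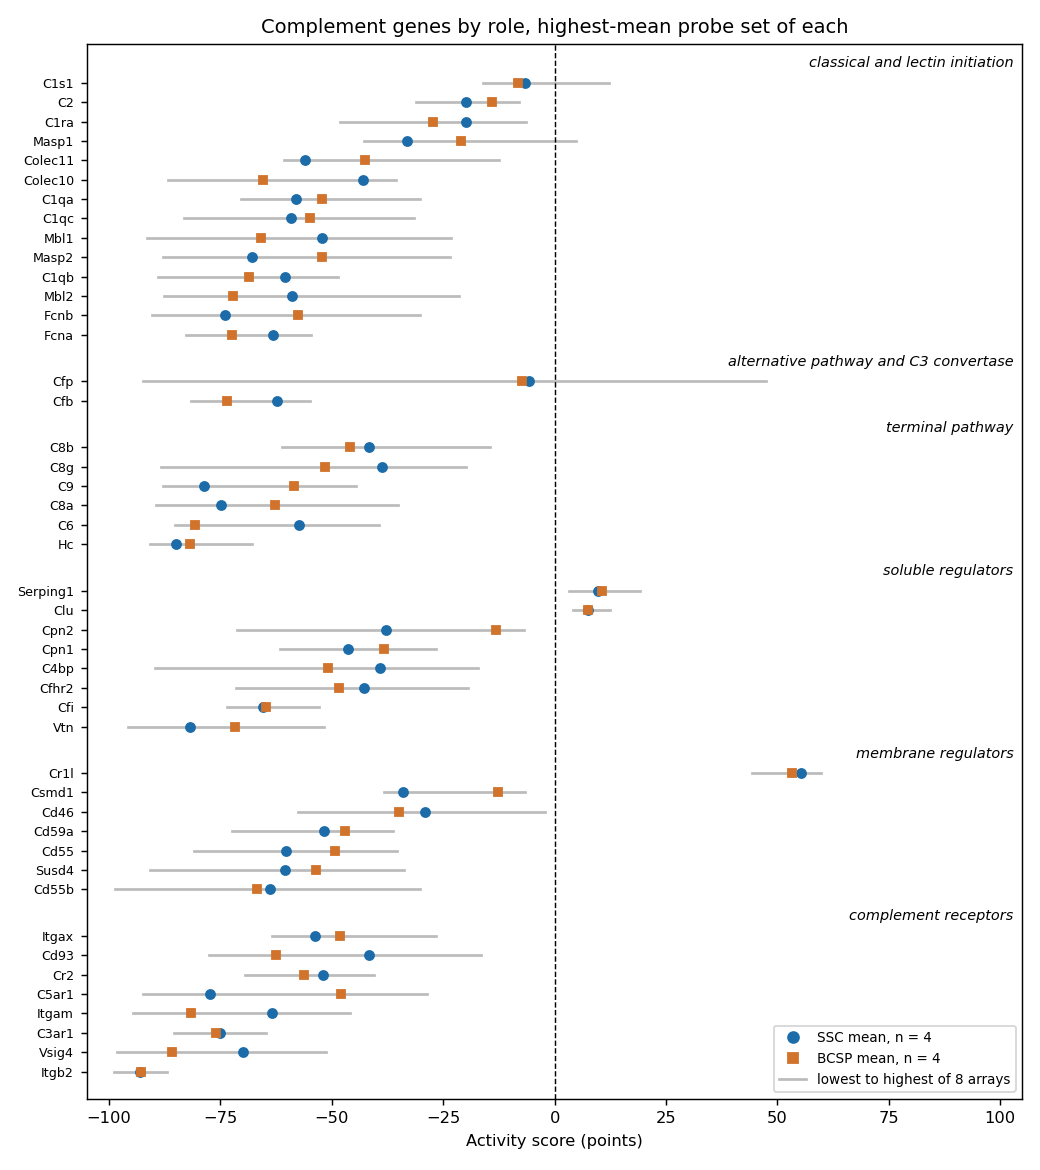
Mean activity score in points (x axis) of 45 complement genes in SSCs (blue circles, n = 4) and BCSPs (orange squares, n = 4), grouped by role, with the highest-mean probe set standing for a gene; grey lines run from the lowest to the highest of the 8 arrays. Serping1, Clu and Cr1l lie right of the dashed threshold of 0 on all arrays, and the other genes have means left of it.

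Limma called 0 of the 45 genes in either direction at an adjusted p under 0.05. At an unadjusted p under 0.05 there were 2, C9 and C5ar1, both lower in SSCs, beside 2.20% of all genes. C9, the pore-forming protein of the membrane attack complex, scored -78.8 ± 9.69 in SSCs and -58.5 ± 9.69 in BCSPs (SD, n = 4 each). The next smallest p belonged to C6 (SSC minus BCSP 23.2 points), Csmd1 (-21.3 points) and Vsig4 (means of -69.8 in SSCs and -85.8 in BCSPs), none of which passed limma (adjusted p = 1). C6 is a terminal component, Vsig4 a macrophage receptor for C3 fragments, and Csmd1 a membrane protein with inhibitor domains. C9, C6 and Vsig4 exceeded the background level on no array.

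Csmd1 was the only gene of the 45 whose SSC and BCSP arrays did not overlap, beside 1.34% of all genes. It scored -33.7, -38.3, -26.5 and -37.8 in SSCs and -6.65, -10.8, -14.0 and -19.6 in BCSPs (exact two-sided permutation p = 0.0286, the smallest that 70 assignments allow). Any gene without overlap gets this p, so it adds nothing to the lack of overlap. Csmd1 exceeded the background level on only 2 of the 8 arrays, the BCSP arrays of experiments 1 and 2. Exchanging arrays inside experiments gave an exact p = 0.125 for Csmd1, and limma with the experiment as a block an unadjusted p = 0.0757 and an adjusted p = 0.933. Of its other 3 probe sets, all with overlapping groups, 2 had a lower mean in SSCs (-26.3 and -1.52 points) and 1 a higher mean (9.03 points). The median difference over the 45 genes was -0.0425 points, beside -0.998 points over all genes.

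Over all 78 probe sets of the wider list 3 did not overlap, 1 of Csmd1 and 2 of Cd93, a membrane protein of endothelial cells once described as a C1q receptor, beside 1.43% of all probe sets. The Cd93 probe set with the largest difference scored -89.2 ± 7.54 in SSCs and -39.2 ± 16.8 in BCSPs (SD, n = 4 each; limma, adjusted p = 1). Its highest-mean probe set went the other way, by 21.0 points. Cd93 was singled out after its values were seen. The endothelial list, with 11 of 11 genes below 0 on all arrays, had array medians from -82.5 to -77.3 in SSCs and from -79.2 to -46.1 in BCSPs and summed scores from -878.8 to -751.8 and from -807.2 to -521.6. Its part in the Cd93 scores was not tested.

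The genes with the most similar profile were sought for Cfp and C5ar1, whose highest-mean probe sets had the largest range of the 6. Scores were centred on their own mean over the 8 arrays and compared by the root mean square difference with 18192 other genes. Htt, Baz2b and Rbm26 came closest to Cfp, at 11.4, 11.5 and 12.4 points, where Cfp itself varied by 44.4 points about its mean. Baz2b, for example, scored 58.4 and 62.3 on the arrays of experiment 3 and -59.7 on the BCSP array of experiment 1. 8430419K02Rik, Tefm and Dnah7a came closest to C5ar1, at 6.36, 7.95 and 9.69 points, where C5ar1 varied by 22.5 points. Tefm lay between 26.8 and 83.6 and so above its threshold throughout, unlike C5ar1.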

How the data were processed

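Activity scores of 45101 probe sets on 8 Affymetrix arrays were used as deposited. The authors amplified the RNA repeatedly and submitted the arrays to Gene Expression Commons, where public mouse arrays serve as the reference that yields a score and a threshold of 0 for every probe set. The summarisation of probes is not given in the sources used. Names came from the platform annotation: 34958 probe sets had 1 symbol, 932 several and 9211 are not listed there. Symbols were checked against RefSeq, which changed 0. The 64 control probe sets were left out.

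The comparison used lmFit and eBayes (trend on, no block) of limma 3.58.1 under R 4.3.3, with Benjamini-Hochberg adjustment over 45037 probe sets and a threshold of 0.05. The fit was tested on simulated scores drawn from normal distributions without the bounds of the real score. That test cannot show how the fit behaves near the ends of the scale. The exact permutation tests took the difference of means. The 6 genes were named with all their probe sets. Of the wider list, those above 0 on all arrays and the 5 with the smallest p were named, and others as examples of a level chosen after their values were seen. Members, lists and alternatives were chosen with earlier results of these data known.

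The labels give each experiment 1 SSC and 1 BCSP array (the title and description of a BCSP array differ in its number, and the description and experiment were followed). Same-numbered arrays deviated together from their group means across genes, with correlations of 0.399, 0.177, 0.572 and 0.183, so the numbers were taken to pair the arrays. Depth does not apply to arrays, and their number limits the precision. Alternatives were the block, quantile normalization, centring, filters on low scores, array weights, the methods' t-test, eBayes with the trend off, other rules for the probe sets of a gene, and leaving out each array. Leaving out both arrays of an experiment was added after seeing the data.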

Additional observations from a re-analysis of the deposited data

Results flagged for a closer look

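In the 86 groups of 4 arrays formed by the 43 probe sets of the complement genes named above, 7 held an array far from the other 3, where chance gives about 1 in 20. For C5ar1 1422190_at the SSC array of experiment 3 scored -87.2, and the others -70.9 to -69.6. For C5ar1 1439902_at the same array scored -44.0, and the others -92.4 to -86.3, so that it stood apart in opposite directions by the probe sets of 1 gene. It stood apart for Cfp 1447537_at as well, at 47.1, with the others at -30.1 to -19.1. For a C1q gene, C1qb, it scored -61.2 by 1 probe set, and the others -98.3 to -92.3. The SSC array of experiment 1 scored -10.1 for Masp1 1438603_x_at, with the others at -42.8 to -38.3, and 51.7 for 1 probe set of Csmd1, with the others at -54.0 to -42.5. Of the BCSP arrays, that of experiment 4 scored -62.5 for C1qc, and the others -53.2 to -51.3, a gap just past the limit.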

How the results depend on the processing

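Under 22 alternatives 0 probe sets of the 6 genes and 0 of the 45 complement genes passed at an adjusted p under 0.05. With the experiment as a replicate block, limma gave 0 of all probe sets after adjustment and 2268 at an unadjusted p under 0.05, and the methods' t-test gave 0 and 1094. The block changed no call of the genes named here. Serping1 stayed the only gene of the 6 above its threshold on all arrays under the 12 alternatives for that count. Leaving out an array or changing the rule for probe sets could not alter this count. Serping1 has a single probe set, and no other gene of the 6 was above 0 on more than 3 arrays. Only quantile normalization and the background level as the threshold could have changed it. Cfb, C5ar1 and Masp1 kept their direction under each alternative that gave a value, without any single array at 8.43 to 13.6, -40.5 to -22.9 and -19.8 to -3.62 points. The block, the methods' t-test and eBayes with the trend off leave a difference unchanged, so they could not turn it. Nor could leaving out both arrays of an experiment turn Cfb or Masp1, each in the same direction in 4 of 4 experiments. As the mean of its probe sets, which disagree in direction, Masp1 was -2.36 points. The small differences of Cfp, Serping1 and C3ar1 turned, and the cause was not tested. Cfp was -16.2 points with array weights, -2.89 as the mean of its probe sets, -22.3 without both arrays of experiment 1, and -26.7 to 19.9 without single arrays. Serping1 was 1.71 points after quantile normalization, 1.80 and 0.230 without both arrays of experiment 2 and 4, and -2.25 to 2.05 without single arrays. C3ar1 was -1.67 points as the mean of its probe sets, -1.93 and -3.78 without both arrays of experiment 3 and 4, and -2.13 to 4.75 without single arrays. A filter for probe sets above 0 on at least 1 array left no value for Cfb, C3ar1 and C5ar1, and a filter on at least 4 arrays none for Cfp and Masp1 either.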
